A study of Mus musculus with 6 samples.

Results

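Expression of 8 transient receptor potential (TRP) channel genes and of *Piezo2* was examined in bulk RNA-seq of mouse dorsal root ganglion (DRG) and neurofibroma tissue. The genes were chosen by symbol, namely *Trpv1*, *Trpv2*, *Trpv4*, *Trpm2*, *Trpm3*, *Trpm8*, *Trpa1*, *Trpc6* and *Piezo2*, and are 9 of the 24062 genes counted. Per genotype 3 libraries were compared, each labelled with its own mouse. The first genotype was *Nf1fl/fl;DhhCre*, in which Cre under the *Dhh* promoter deletes *Nf1* in the Schwann cell (SC) lineage. The second, labelled double knockout and written DKO-labelled here, was *Runx1fl/fl;Runx3fl/fl;Nf1fl/fl;DhhCre* according to the extraction protocol and the methods, although its genotype label leaves out *Nf1fl/fl*. All mice carried *DhhCre* on a C57BL/6-I129 background. Their age is not given in the sources used here. Neurons and other cells outside the SC lineage are not targeted by this Cre and keep intact copies of the floxed genes. The labels name the tissue as DRG in the first genotype and as neurofibroma tumor in the second, whereas the protocol gives DRG/tumors for both. Genotype and a difference in dissected tissue therefore cannot be told apart.

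TRP channels are cation channels of the plasma membrane, most of which let in calcium. In sensory neurons of the DRG several of them act as thermal and chemical sensors, and many open or close downstream of phospholipase C. PIEZO2 is not a TRP channel but a large ion channel opened by force on the membrane, and it serves light touch and the sense of body position.

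Total counts per library were between 12439296 and 16682194, so that 3 counts, used as a detection floor, correspond to 0.179 to 0.247 CPM (counts scaled to a common library total, after TMM normalization). *Runx1* was at 131, 141 and 172 CPM in *Nf1fl/fl;DhhCre* and at 84.0, 78.9 and 185 CPM in the DKO-labelled libraries. Replicate 3 of the latter was thus above all *Nf1fl/fl;DhhCre* libraries. Bulk counts include cells that this Cre does not target, so this value does not settle the genotype of that library. *Runx3* was at 19.9, 15.1 and 29.9 CPM against 13.5, 10.3 and 12.1 CPM. Skeletal muscle genes stood apart in 1 library of each genotype: 9 such genes summed to 3095 CPM in *Nf1fl/fl;DhhCre* replicate 2 and to 13707 CPM in DKO-labelled replicate 2, against 6.99 to 83.4 CPM in the other 4. The called genes among the 9 are also given without DKO-labelled replicate 3 and without both muscle-rich libraries.

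Of the 9 channel genes, 3 were higher in the DKO-labelled libraries at an adjusted p below 0.05 and more than 2-fold: the cold sensor *Trpm8*, the irritant sensor *Trpa1* and the diacylglycerol-gated *Trpc6* (limma-voom with Benjamini-Hochberg adjustment over 15652 genes). Across all genes tested 8.03% were called higher by the same rule, and 13.4% in either direction. None of the 9 was called lower, where 5.36% of all genes tested were. edgeR's quasi-likelihood test and DESeq2 also called 0 of them lower by more than 2-fold. At an unadjusted p below 0.05 only *Trpm3* was lower, by less than 2-fold. In 5 of the 9, *Trpv1*, *Trpm8*, *Trpa1*, *Trpc6* and *Piezo2*, all 3 DKO-labelled libraries were above all 3 *Nf1fl/fl;DhhCre* libraries, against 21.8% of all genes tested. The groups of the other 4 overlapped, and none separated downward, where 20.5% of all genes did. The median log2 fold change of the 9 genes was 0.80, against 0.02 over all genes tested. All 9 passed the filter on low counts.

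**Figure D1:**
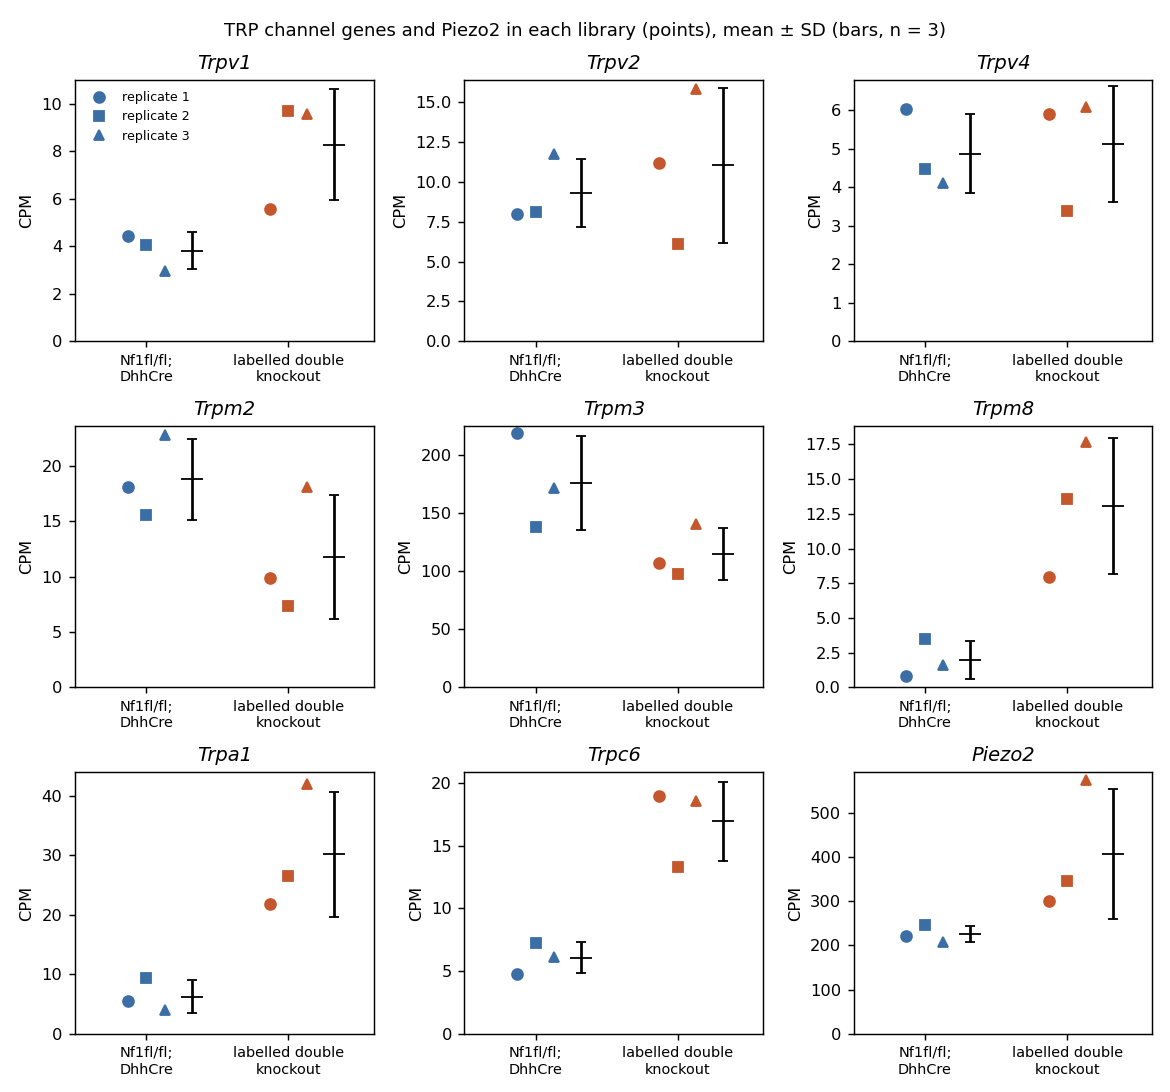
Expression of the 9 channel genes in each library, in CPM on a linear axis from 0 that differs between panels, with circles, squares and triangles for replicates 1, 2 and 3, and bars for the mean and SD of 3 libraries. The groups separate in the panels of *Trpv1*, *Trpm8*, *Trpa1*, *Trpc6* and *Piezo2*, with the DKO-labelled libraries above, and overlap in the other 4.

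The largest change among the 9 was that of *Trpm8* (ENSMUSG00000036251, GRCm38 chromosome 1, 88277661 to 88389293, plus strand). TRPM8 is the menthol receptor and the main sensor of environmental cold in a small class of DRG neurons. The gene was at 0.832, 3.46 and 1.60 CPM in *Nf1fl/fl;DhhCre*, which correspond to 12, 58 and 25 counts. It was at 7.97, 13.6 and 17.7 CPM, or 100, 165 and 268 counts, in the DKO-labelled libraries. Every DKO-labelled library was thus above every *Nf1fl/fl;DhhCre* library, and the highest of the latter was replicate 2. The 12 counts of replicate 1 have an exact binomial 95% interval of 0.447 to 1.51 unscaled CPM, which covers counting error only. The mean rose from 1.96 ± 1.35 to 13.1 ± 4.88 CPM (SD, n = 3 each), which is 2.85 on the log2 scale (SE 0.60, 95% interval 1.44 to 4.25, adjusted p = 0.0212, limma-voom). This call did not hold without *Nf1fl/fl;DhhCre* replicate 1 (adjusted p = 0.0707), without replicate 3 of that genotype (0.0711) or without DKO-labelled replicate 2 (0.0564), although the log2 fold change stayed between 2.42 and 3.44. Without DKO-labelled replicate 3 it was 2.57 (adjusted p = 0.0382, limma-voom), and without both muscle-rich libraries 3.37 (adjusted p = 0.0419). In GENCODE M21, 388 exonic bases of *Trpm8* overlap the antisense gene 4930453O03Rik. Whether the counting used strand is not stated, so reads from that overlap cannot be assigned to either gene.

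*Trpa1* encodes the receptor for mustard oil and other reactive irritants, found mainly in nociceptors (ENSMUSG00000032769, chromosome 1, 14872648 to 14918862, minus strand). It was at 5.48, 9.35 and 3.91 CPM in *Nf1fl/fl;DhhCre* and at 21.8, 26.5 and 42.0 CPM in the DKO-labelled libraries. The lowest of the latter was thus above the highest of the former, and, as for *Trpm8*, replicate 2 and replicate 3 were the highest of their respective groups. The log2 fold change was 2.30 (SE 0.40, 95% interval 1.36 to 3.24, adjusted p = 0.0138, limma-voom). It lay between 2.02 and 2.70 when each library was left out in turn, and the call was lost without *Nf1fl/fl;DhhCre* replicate 1 (adjusted p = 0.0584). Without DKO-labelled replicate 3 the value was 2.02 (adjusted p = 0.0236, limma-voom), and without both muscle-rich libraries 2.75 (adjusted p = 0.0234).

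*Trpc6* encodes a channel opened by diacylglycerol, the lipid that phospholipase C releases, and is expressed well beyond sensory neurons, for example in smooth muscle and kidney podocytes (ENSMUSG00000031997, chromosome 9, 8544142 to 8680741, plus strand). Its values were 4.79, 7.27 and 6.16 CPM in *Nf1fl/fl;DhhCre*. They were 19.0, 13.3 and 18.6 CPM in the DKO-labelled libraries. The groups did not overlap, and here replicate 1 rather than replicate 3 was the highest of the DKO-labelled libraries. The rise from 6.07 ± 1.24 to 16.9 ± 3.15 CPM (SD, n = 3 each) corresponded to 1.48 on the log2 scale (SE 0.26, 95% interval 0.87 to 2.08, adjusted p = 0.0141, limma-voom). The range over the fits without 1 library was 1.35 to 1.67, and the call was lost without *Nf1fl/fl;DhhCre* replicate 1 (adjusted p = 0.0554). Without DKO-labelled replicate 3 the log2 fold change was 1.4 (adjusted p = 0.0330, limma-voom), and without both muscle-rich libraries 1.79 (adjusted p = 0.0209).

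Among the 3 vanilloid-type channels, *Trpv1* had the largest difference. TRPV1 is the capsaicin receptor, opened by noxious heat and acid in nociceptors, and its gene lies on chromosome 11 (ENSMUSG00000005952, 73234292 to 73261242, plus strand). It was at 4.44, 4.05 and 2.95 CPM in *Nf1fl/fl;DhhCre* and at 5.58, 9.70 and 9.57 CPM in the DKO-labelled libraries. The groups did not overlap, but DKO-labelled replicate 1 lay close to the *Nf1fl/fl;DhhCre* values. The log2 fold change of 1.10 (SE 0.34, 95% interval 0.31 to 1.89) did not pass the threshold after adjustment (adjusted p = 0.0596, limma-voom). The gene passed both thresholds under DESeq2 (log2 fold change 1.11, adjusted p = 0.0113) and in limma-voom without DKO-labelled replicate 1 (1.39, adjusted p = 0.0303). Without DKO-labelled replicate 3 the limma-voom value was 0.97 (adjusted p = 0.140), and without both muscle-rich libraries 1.06 (adjusted p = 0.169).

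*Trpv2*, a relative of *Trpv1* first described as a sensor of high noxious heat and also expressed in macrophages, lies on the same chromosome (62574486 to 62600515, plus strand). It was at 7.98, 8.10 and 11.7 CPM in *Nf1fl/fl;DhhCre* and at 11.2, 6.09 and 15.8 CPM in the DKO-labelled libraries. The latter held both the lowest and the highest value of the 6 libraries, and the log2 fold change was 0.20 (SE 0.37, 95% interval -0.67 to 1.07, adjusted p = 0.735, limma-voom). Its sign turned to -0.14 without DKO-labelled replicate 3. *Trpv4*, a channel opened by hypotonic swelling and warmth in many tissues (chromosome 5, 114622152 to 114658421, minus strand), was at 6.03, 4.47 and 4.11 CPM against 5.90, 3.37 and 6.07 CPM. These groups overlapped over almost their whole range (log2 fold change 0.07, SE 0.33, 95% interval -0.70 to 0.85, adjusted p = 0.903, limma-voom). The sign of this value turned without DKO-labelled replicate 3 (-0.0853), with sample quality weights (-0.0831) and with scaling by library size only (-0.00881).

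RUNX proteins bind DNA at a short motif, searched here as TGTGGT or TGCGGT on both strands. RefSeq windows on GRCm38.p6, each from 250 bases before to 50 bases after an annotated start, were matched by symbol for 7 of the 9 genes, all but *Trpa1* and *Piezo2*, giving 10 windows. The motif was in 4 of these 10 windows, which belong to *Trpv1*, *Trpv2* and *Trpm3*, and in 22.4% of all 32851 windows of the same length. A match of 6 letters is a description of sequence and not of binding. The 250 bases before the start follow, 5′ to 3′ on the plus strand, for the 2 called genes that have a window and for *Trpv1*, whose groups also separated. Capitals mark the motif. The *Trpm8* stretch is chr1:88306485-88306734, which lies within the GENCODE gene, that of *Trpc6* chr9:8543892-8544141 and that of *Trpv1* chr11:73233899-73234148.
Trpm8: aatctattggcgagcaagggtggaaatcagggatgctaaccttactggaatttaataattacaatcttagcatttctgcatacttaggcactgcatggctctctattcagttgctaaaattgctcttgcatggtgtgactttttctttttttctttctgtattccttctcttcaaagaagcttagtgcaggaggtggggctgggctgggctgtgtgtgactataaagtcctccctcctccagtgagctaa
Trpc6: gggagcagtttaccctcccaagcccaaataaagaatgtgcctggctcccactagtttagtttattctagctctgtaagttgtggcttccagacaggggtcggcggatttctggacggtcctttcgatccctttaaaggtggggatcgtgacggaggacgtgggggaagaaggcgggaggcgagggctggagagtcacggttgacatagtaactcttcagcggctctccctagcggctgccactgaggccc
Trpv1: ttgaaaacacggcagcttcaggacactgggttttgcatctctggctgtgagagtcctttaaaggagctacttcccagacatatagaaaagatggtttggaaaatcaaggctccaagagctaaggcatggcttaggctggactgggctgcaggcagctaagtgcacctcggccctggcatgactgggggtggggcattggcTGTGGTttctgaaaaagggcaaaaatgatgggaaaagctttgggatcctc
The *Trpv1* stretch holds TGTGGT, its first base 50 bases before the start. Neither letter string is in the *Trpm8* or *Trpc6* window. *Trpv2*, whose expression groups overlapped, holds TGTGGT at 1 site that falls in 2 of its windows, and *Trpm3* holds the motif on the opposite strand in the window of 1 of its 2 starts.

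Both melastatin-type members other than *Trpm8* had lower means in the DKO-labelled libraries and were not called. *Trpm3* encodes a channel opened by heat and by the steroid pregnenolone sulfate (ENSMUSG00000052387, chromosome 19, 22139046 to 22995410, plus strand). It was at 219, 138 and 172 CPM in *Nf1fl/fl;DhhCre* and at 108, 98.0 and 141 CPM in the DKO-labelled libraries. The groups overlapped only in that 141 CPM, in replicate 3, exceeded 138 CPM. The log2 fold change was -0.60 (SE 0.21, 95% interval -1.09 to -0.10, adjusted p = 0.0898, limma-voom). The adjusted p was below 0.05 under DESeq2 (0.0389), with sample quality weights (0.0247) and without *Nf1fl/fl;DhhCre* replicate 2 (0.0386), with a change under 2-fold in each (log2 fold changes -0.62, -0.80 and -0.72). Exons of *Trpm3* share 277 bases with antisense Gm27151 and 351 with C330002G04Rik on the other strand.

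*Trpm2* encodes a channel opened by ADP-ribose under oxidative stress and is prominent in phagocytes (ENSMUSG00000009292, chromosome 10, 77907722 to 77970563, minus strand). It was at 18.1, 15.5 and 22.8 CPM in *Nf1fl/fl;DhhCre* and at 9.88, 7.32 and 18.1 CPM in the DKO-labelled libraries. Replicate 3 labelled double knockout fell among the *Nf1fl/fl;DhhCre* values and the other two lay below all of them. The log2 fold change was -0.72 (SE 0.33, 95% interval -1.51 to 0.06, adjusted p = 0.171, limma-voom), with a range of -1.11 to -0.44 when each library was left out. Macrophage markers moved in the same direction: 11 of 12 tested were called lower, their summed level was 1401 to 2956 CPM in *Nf1fl/fl;DhhCre* and 229 to 544 CPM in the DKO-labelled libraries, and none was at 0 in any library. The number called was 2 without *Nf1fl/fl;DhhCre* replicate 1 (median log2 fold change -2.29) and 6 without DKO-labelled replicate 2 (-1.86). The 2 with the highest mean CPM, *Itgam* and *Ptprc*, had log2 fold changes of -2.89 and -3.17, and the smallest called change of the list was that of *Lyz2* (-1.22), named after its value was seen. The part of macrophage RNA in the *Trpm2* and *Trpv2* values was not tested. In bulk tissue, fewer cells of a type and less RNA per cell cannot be told apart.

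*Piezo2* had the highest level per kilobase of the 9 genes (ENSMUSG00000041482, chromosome 18, 63010213 to 63387183, minus strand). It was at 222, 245 and 208 CPM in *Nf1fl/fl;DhhCre* and at 300.3, 345 and 573 CPM in the DKO-labelled libraries. All libraries of the latter were above those of the former, and replicate 3 stood well above the other two. The log2 fold change was 0.80 (SE 0.24, 95% interval 0.24 to 1.36, adjusted p = 0.0559, limma-voom), so that it missed both the adjusted threshold and the 2-fold limit. Without DKO-labelled replicate 1 it passed both (1.03, adjusted p = 0.0255, limma-voom), and without DKO-labelled replicate 3 the value was 0.52 (adjusted p = 0.0530). Without both muscle-rich libraries it was 0.97 (adjusted p = 0.0814, limma-voom). The adjusted p was below 0.05 under DESeq2 (0.00985, log2 fold change 0.84) and with sample quality weights (0.0379, log2 fold change 0.70), at less than 2-fold in both. *Piezo1*, its paralog in vascular and many other cells, was at 35.6, 41.6 and 40.4 CPM against 31.2, 37.6 and 19.5 CPM and was not called (log2 fold change -0.48, adjusted p = 0.206, limma-voom).

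The levels of the 9 genes were compared with each other per kilobase of exon. In *Nf1fl/fl;DhhCre*, *Piezo2* was first at 13.1 ± 1.08 CPM per kb (SD, n = 3) and *Trpm3* second at 7.22 ± 1.67, and their ranges did not overlap. *Trpv2* (2.07), *Trpm2* (1.51), *Trpa1* (1.47), *Trpc6* (1.20), *Trpv4* (1.19) and *Trpv1* (1.04) followed, each with a range that overlapped that of the next. *Trpm8* was last at 0.415 ± 0.285 CPM per kb, below the range of *Trpv1*. In the DKO-labelled libraries *Piezo2* was again first, at 23.7 ± 8.53 CPM per kb. *Trpa1* was second at 7.06 ± 2.48 and *Trpm3* next at 4.72 ± 0.915, with overlapping ranges. *Trpc6* (3.35), *Trpm8* (2.76), *Trpv2* (2.46) and *Trpv1* (2.25) followed, each overlapping its neighbour. *Trpv4* (1.25) and *Trpm2* (0.944 CPM per kb) were the lowest, with ranges that overlapped each other but not that of *Trpv1*.

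Genes of sensory neurons rose in the same libraries. Of a list of 23 that holds none of the 9 channel genes, 22 were called higher, with a median of 2.38 (log2 fold change), and their summed level was 2004 to 3544 CPM in *Nf1fl/fl;DhhCre* against 7797 to 16582 CPM in the DKO-labelled libraries. The exception was *Ntrk2* (log2 fold change -0.38). None of the 23 was at 0 in any library. The number called higher was 1 without *Nf1fl/fl;DhhCre* replicate 1 and 10 without its replicate 3, with medians of 2.26 and 2.12, and was 17 to 22 without each of the other libraries. Without both muscle-rich libraries it was 21. Highest in mean CPM, which is not corrected for length, were *Nefl*, a neurofilament subunit, with a log2 fold change of 2.40, and *Snap25*, a synaptic vesicle fusion protein, with 2.53. The mean log2 CPM over the list was highest in replicate 2 among the *Nf1fl/fl;DhhCre* libraries and in replicate 3 among those labelled double knockout, the libraries in which *Trpm8*, *Trpa1* and *Piezo2* were also highest. *Trpa1* and *Piezo2* placed all 6 libraries in the same order as this mean, a description over libraries that differ in genotype. The mean over the list differed by 2.16 on the log2 scale between the groups, at 5.22 ± 0.675 against 7.38 ± 0.540 (SD, n = 3 each).

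**Figure D2:**
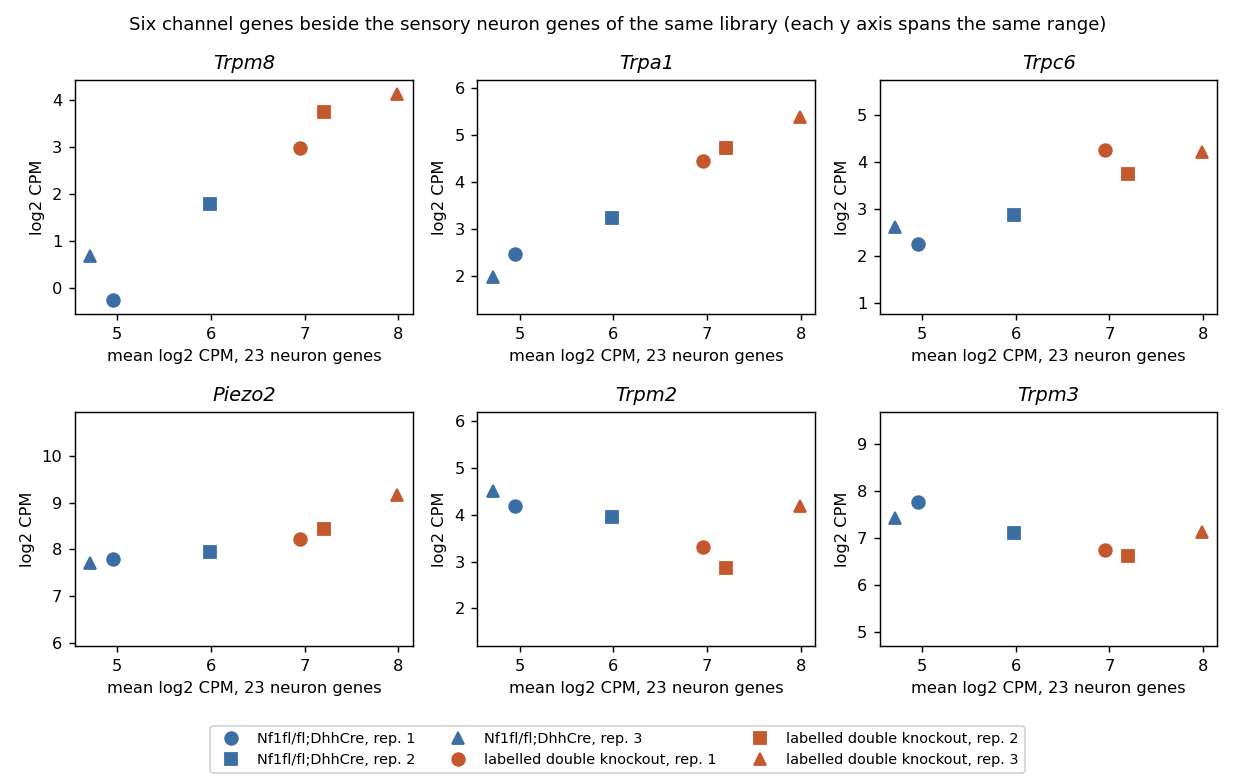
Log2 CPM of 6 channel genes (y axis, spanning the same log2 range in every panel) against the mean log2 CPM of 23 sensory neuron genes in the same library (x axis), 1 point per library. *Trpa1* and *Piezo2* order the 6 libraries as the neuron genes do, with a smaller span for *Piezo2*. *Trpm2* and *Trpm3* are highest in *Nf1fl/fl;DhhCre* libraries with low neuron genes. Among the DKO-labelled libraries, however, both are highest in replicate 3, where the neuron genes are also highest.

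Each channel gene was therefore also expressed as its log2 CPM minus the list mean in the same library, and the groups were compared by a two-sided exact permutation test, whose smallest p with 3 against 3 is 0.1. Relative to the list, *Trpa1* was at -2.49, -2.76 and -2.73 in *Nf1fl/fl;DhhCre* and at -2.50, -2.47 and -2.60 in the DKO-labelled libraries. The 6 values overlapped and their group means differed by 0.14 (p = 0.3, exact permutation test). *Trpm8* was at -5.16, -4.18 and -4.00 against -3.95, -3.44 and -3.84, so that it remained higher in every DKO-labelled library, with a difference of 0.71 (p = 0.1, exact permutation test). The 2 groups of *Trpm8* were separated here only by the step from -4.00 to -3.95. With a prior count of 2 in place of 0.5 they overlapped (difference 0.63, p = 0.2, exact permutation test), and without *Nf1fl/fl;DhhCre* replicate 1 the difference was 0.35. *Trpc6* (difference -0.68, p = 0.2) and *Trpv1* (-1.07, p = 0.2, exact permutation test for both) overlapped between the groups.

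*Piezo2* was lower relative to the list in every DKO-labelled library, at 1.27, 1.23 and 1.17 against 2.84, 1.95 and 2.99, a difference of -1.37. The values of the DKO-labelled libraries lay close together (SD 0.0509) and below all *Nf1fl/fl;DhhCre* values. The same separation downward was seen for *Trpv2* (-2.0), *Trpv4* (-2.12), *Trpm3* (-2.77) and *Trpm2* (-2.93), each at the smallest p of 0.1 that the exact permutation test allows. These differences measure the channel gene against the neuron list and contain the rise of the list itself. That rise was 2.16 on the log2 scale, so any gene that rose less is lower here by construction. The downward separations therefore do not show a fall of the channel gene itself. How many of all genes separate on this scale was not computed.

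**Figure D3:**
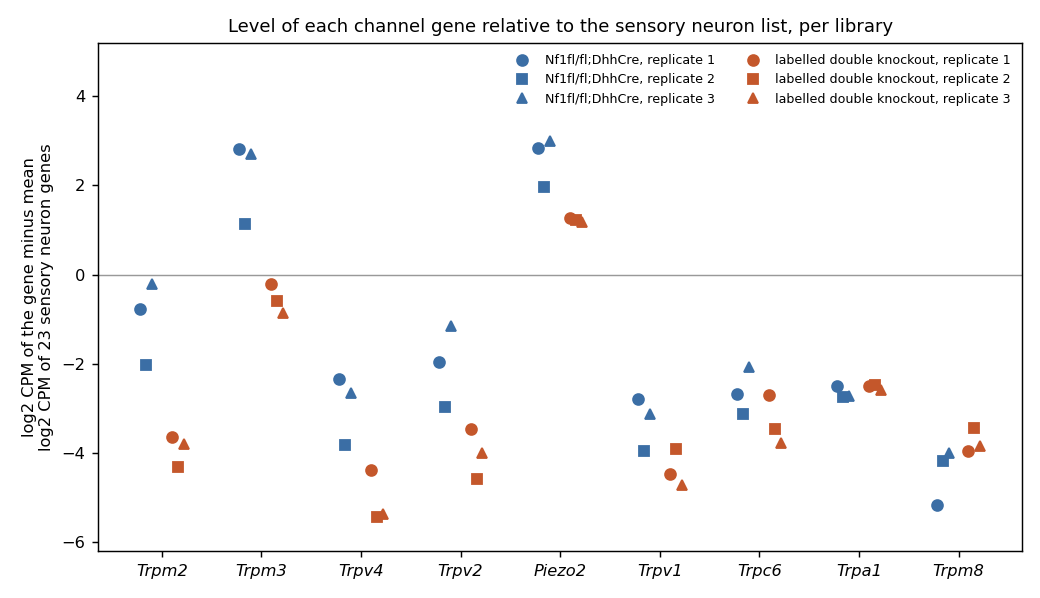
Log2 CPM of each channel gene minus the mean log2 CPM of 23 sensory neuron genes in the same library (y axis), with genes ordered along the x axis by the difference between groups and 1 point per library. *Trpm8* is the only gene whose DKO-labelled libraries all lie above the others, which does not hold with a prior count of 2, and *Trpa1* stays between -2.76 and -2.47 in all 6 libraries.

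The other 21 TRP and Piezo genes were examined so that the 9 are not read alone. Of these, 14 passed the filter on low counts, with a median log2 fold change of 0.09. The 7 that did not were *Trpv5*, *Trpm1*, *Trpm5*, *Trpc2*, *Trpc7*, *Mcoln3* and *Pkd2l1*, which had at most 18 counts in any library. Of the 14 tested, 1 was called, and it was higher.

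A further 2 of the 14 had an adjusted p below 0.05 with a change under 2-fold. *Trpc1*, a subunit that assembles with other TRPC channels, was at 13, 12.4 and 9.36 CPM against 19.9, 21.1 and 27.9 CPM, without overlap and just under 2-fold (log2 fold change 0.997, adjusted p = 0.0244, limma-voom). *Pkd2*, the polycystin of primary cilia, was at 141, 160 and 136 CPM against 102, 91.8 and 85.6 CPM. It was the only gene of the family that was lower at an adjusted p below 0.05 (log2 fold change -0.65, SE 0.13, adjusted p = 0.0187, limma-voom). Over all genes tested 8.22% were lower at that threshold at any fold and 11.1% were higher. When 1 library was left out, the adjusted p of *Trpc1* ranged from 0.0269 to 0.0636 and was above 0.05 without either of *Nf1fl/fl;DhhCre* replicates 1 and 3 or of DKO-labelled replicates 2 and 3. *Trpc1* passed both thresholds without *Nf1fl/fl;DhhCre* replicate 2 (log2 fold change 1.10, adjusted p = 0.0287, limma-voom) and without DKO-labelled replicate 1 (1.13, adjusted p = 0.0269). The adjusted p of *Pkd2* ranged from 0.0341 to 0.0748 in these fits. It was above 0.05 without either of *Nf1fl/fl;DhhCre* replicates 1 and 3 or without DKO-labelled replicate 2. *Trpc5* had a large fold change (2.28) that rested on 6 to 130 counts per library and did not pass (adjusted p = 0.128, limma-voom). The gene was called under DESeq2 and with p-values without adjustment. *Trpc1*, *Pkd2* and *Trpc5* were chosen for mention after their values were seen. Over the whole family of 30 genes, 4 of the 23 tested were called, all higher, and the median log2 fold change was 0.20.

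**Figure D4:**
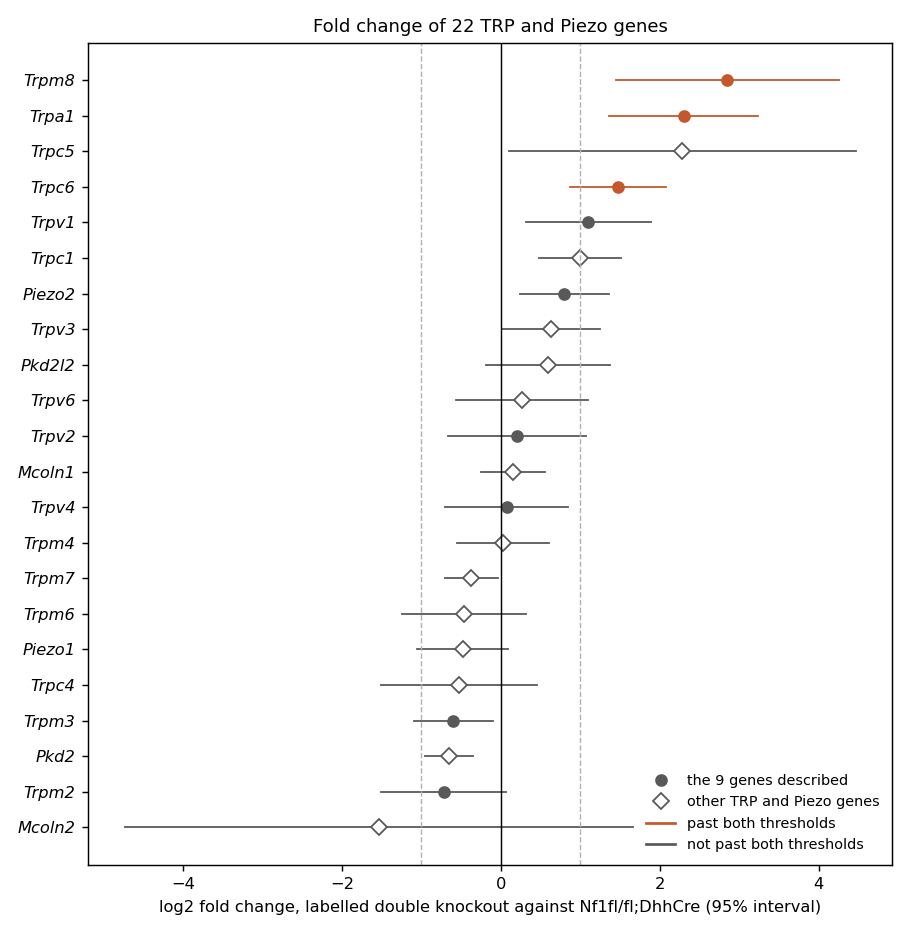
Log2 fold change of 22 of the 23 TRP and Piezo genes tested (x axis, DKO-labelled libraries against *Nf1fl/fl;DhhCre*, lines for 95% intervals), with filled circles for the 9 genes described and open diamonds for the others. *Trpm8*, *Trpa1* and *Trpc6* are past both thresholds (orange), and dashed lines mark a 2-fold change.

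Genes whose products bind these channels or act upstream of them were read from a list of 29, of which 25 passed the filter. By the same rule 7 were called higher and 1 lower, with a median log2 fold change of 0.52. The count of higher genes was 2 without *Nf1fl/fl;DhhCre* replicate 1, 3 without its replicate 3 and 5 to 8 without each of the others. *Pirt*, a membrane protein that binds TRPV1 and TRPM8, was at 49.5, 138 and 47.8 CPM in *Nf1fl/fl;DhhCre* and at 270.4, 329 and 597 CPM in the DKO-labelled libraries. The groups were far apart, and again replicate 2 and replicate 3 were the highest of their groups (log2 fold change 2.44, SE 0.46, adjusted p = 0.0160, limma-voom). *Pirt* was not called without *Nf1fl/fl;DhhCre* replicate 1 (2.24, adjusted p = 0.0636) or replicate 3 (2.22, adjusted p = 0.0524). *Tmem150c*, which encodes tentonin 3, a modulator of mechanically activated channels, rose with a log2 fold change of 1.88 (adjusted p = 0.0219, limma-voom). *Tmem150c* lost its call without *Nf1fl/fl;DhhCre* replicate 1, *Nf1fl/fl;DhhCre* replicate 3 or DKO-labelled replicate 2 (adjusted p 0.0504 to 0.0771).

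Further genes that were higher act in signalling downstream of receptors. The protein kinase C genes *Prkce* and *Prkca*, whose products phosphorylate TRPV1, had log2 fold changes of 1.59 (adjusted p = 0.00872) and 1.49 (adjusted p = 0.00919). The phospholipase C gene *Plcb3* had 1.23 (adjusted p = 0.0225, limma-voom for all). The gene called lower was *Ptger4*, a prostaglandin E2 receptor found on nociceptors and on immune cells, at 17.3, 14.5 and 24.4 CPM against 8.69, 8.14 and 7.99 CPM. Its groups did not overlap (log2 fold change -1.14, SE 0.26, adjusted p = 0.0270, limma-voom). *Prkce* and *Prkca* kept their calls without each library in turn. *Plcb3* lost its call without *Nf1fl/fl;DhhCre* replicate 1 (0.0670) or replicate 3 (0.0574), and fell just under 2-fold without DKO-labelled replicate 3 (log2 fold change 0.98). *Ptger4* was called without *Nf1fl/fl;DhhCre* replicate 2 and lost its call without any other library (adjusted p 0.0568 to 0.0827).

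For each channel gene the 2 genes with the most similar profile were sought by the root mean square (RMS) difference of mean-centred log2 CPM over the 6 libraries, among genes with a mean log2 CPM of at least 3. The smallest RMS differences were those of *Piezo2*, with *Ssbp3* (RMS 0.0504) and *Rbms3* (0.0638). *Trpm3* was closest to *Sema7a* (0.0667) and *Tnik* (0.0730), and *Trpa1* to *Ndrg4* (0.0687) and *Rimkla* (0.0796). *Trpm8* was nearest to *Mapk8ip2* (0.184) and *Atcay* (0.197). *Trpc6* was nearest to *Mapk8ip1* (0.141) and *Asns* (0.144), and *Trpv1* to Gm5069 (0.136) and *Hras* (0.145). *Trpv4* was nearest to *Tmtc2* (0.113) and *Bbs5* (0.123), *Trpm2* to *Ndst3* (0.152) and *Tnfrsf11a* (0.162), and *Trpv2* to *Gas2l1* and *Sema4f* (0.162 each). The spread of *Trpm8* itself over the libraries, on the same scale, was 1.58, that of *Trpa1* 1.24, that of *Piezo2* 0.493 and that of *Trpv4* 0.322. These are descriptions over 6 libraries of 2 genotypes that also differ in the level of neuron genes.

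Markers of other cells also differed between the groups. Of 8 SC genes 3 were called higher. The median over the 8 was 0.03 (log2 fold change), and their summed level was 1616 to 1835 CPM against 2114 to 2917 CPM. Of 8 genes of myelinating SCs 6 were higher, with a median of 1.27, among them *Pmp22* (1.21) and *Mbp* (1.32). Of 7 fibroblast and perineurial genes 4 were lower, with a median of -1.21. *Dcn*, the highest of them in mean CPM, was called (-1.21), and *Col3a1*, the next, was at 1399 against 728 CPM and was not called. The part of these cells in the values of the channel genes was not tested.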

How the data were processed

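The 6 libraries were grouped by genotype label. Replicate numbers follow the order of the samples within each genotype, because the labels give none. Per the labels and the methods, the authors amplified RNA with the Ovation RNA-Seq System, prepared libraries with Nextera XT, aligned paired-end reads to mm10 with TopHat and counted reads per gene with featureCounts. The deposited values are raw counts. Annotation and strand setting are not stated. For 4 libraries the mouse number in the title and in the deposited table differ, within the same genotype, and 1 library labelled double knockout came from another sequencing run, so that a run and its library cannot be told apart.

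Low-count genes were removed by filterByExpr in edgeR 4.0.16 (at least 10 counts, and 15 in total). The rest, with TMM scaling, entered a limma-voom fit (limma 3.58.1, R 4.3.3) with genotype as the only term and Benjamini-Hochberg adjustment over 15652 genes. Calls need an adjusted p below 0.05 and more than 2-fold. Log2 CPM per library used a prior count of 0.5, or 2 as an alternative. Alternatives were DESeq2 1.42.0, the quasi-likelihood test of edgeR, sample quality weights, scaling by DESeq2 size factors or by library size only, no filter or CPM above 1 in at least 3 libraries, p-values without adjustment, and omission of each library. Leaving out both muscle-rich libraries was added after seeing the data. The tests were tried on simulated data, and no result of that is given here. Positions and exon lengths are from GENCODE M21 and promoter windows from RefSeq. Beside the 9 channel genes, the genes named were TRP, Piezo and partner genes past both thresholds, the 2 genes of a marker list with the highest mean CPM and the 2 nearest profiles, some of which are left out of the text. The channel genes and gene lists were chosen with earlier results of these data known.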

Additional observations from a re-analysis of the deposited data

How the results depend on the processing

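*Trpm8*, *Trpa1* and *Trpc6* were called higher under each of the other tests, scalings, filters and weights, with log2 fold changes of 2.72 to 3.16, 2.22 to 2.30 and 1.39 to 1.60. *Trpv1* was also called under DESeq2 (1.11) and with unadjusted p-values (1.10). *Trpv4* turned to -0.0831 with sample quality weights and to -0.00881 with library size only, which moved the median of all genes by -0.08 and the share of higher calls from 60% to 54.5%. The cause of these changes was not tested.

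When 1 library was left out, the log2 fold change ranged from 0.96 to 1.39 for *Trpv1*, -0.14 to 0.56 for *Trpv2*, -0.0853 to 0.33 for *Trpv4*, -1.11 to -0.44 for *Trpm2*, -0.75 to -0.40 for *Trpm3*, 2.42 to 3.44 for *Trpm8*, 2.02 to 2.70 for *Trpa1*, 1.35 to 1.67 for *Trpc6* and 0.52 to 1.03 for *Piezo2*. The negative values of *Trpv2* (-0.14) and *Trpv4* (-0.0853) came without replicate 3 labelled double knockout. Between 0 and 5 of the 9 genes, 0 and 7 TRP and Piezo genes and 362 and 2285 of all genes were called higher or, for all genes, in either direction. The 0 and the 362 came without *Nf1fl/fl;DhhCre* replicate 1, and the 5 without replicate 1 labelled double knockout. Without *Nf1fl/fl;DhhCre* replicate 3, 1033 genes were called, and without replicate 2 labelled double knockout 1018. These fits have fewer libraries. The share of higher among called genes was 50% to 70.3% in them. DESeq2 called 2907 genes and unadjusted p-values 2978, against 2096. The difference relative to the neuron list kept its sign for each of the 9 genes when a library was left out, and was 0.35 to 0.93 for *Trpm8* and 0.09 to 0.22 for *Trpa1*. With a prior count of 2 the *Trpm8* value was 0.63 and its groups overlapped. *Trpm8* rested on 12 to 58 counts in *Nf1fl/fl;DhhCre*. No paired analysis was made, because each library is labelled with its own mouse and the labels give no pairing between genotypes.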
